A study of Homo sapiens with 3 samples.

Results

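The cells described here are FOXA2+ TTR+ cells of chambered cardiac organoids (CCOs) at D8 and D14, a small population proposed as early foregut-like endoderm. Among kept cells, a cell was taken when it held at least 1 unique molecular identifier (UMI, a tag that marks 1 captured mRNA molecule) of FOXA2 and at least 3 UMIs of TTR. At D8, 94 of 2657 kept cells met this rule (3.54%, exact binomial 95% interval 2.87 to 4.31), and at D14, 83 of 3585 kept cells did (2.32%, 1.85 to 2.86). Together they made 177 of the 8188 kept cells of the 3 libraries. The share was lower at D14, and for this gate the intervals, which take the cells of 1 library as units and cover counting error only, did not overlap, though they nearly met. With the gate applied after thinning every cell to 4000 UMIs, which sets depth equal, the shares were 1.39% (0.982 to 1.91) and 1.09% (0.775 to 1.48), and these intervals overlapped. Because each day is represented by 1 library, the effect of day cannot be told apart from that of library, and no replicate error exists. The cells were selected on their measured FOXA2 and TTR UMIs, so levels of these genes, and of any gene against the other cells, are a description and no test.

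CCOs were made from the human embryonic stem cell line H7. Cardiac differentiation in 2D culture used CHIR99021, which activates WNT signalling, and then IWP-2, which blocks WNT secretion, in RPMI with B27 lacking insulin. The cells were then aggregated in Matrigel and kept from that step on in cardiosphere growing media (CGM), so D8 CCOs had been in CGM for a short time and D14 CCOs for longer. CGM contains thrombin, cardiotrophin-1, EGF, FGF-2, Wnt-3A and EDN1. All groups share the same cell line and differentiation, and no CCOs without these treatments were analysed here. The number of CCOs pooled into a library is not given in the sources used here. D21 CCOs, matured in a spinner flask, make up the other library.

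Definitive endoderm arises beside cardiac mesoderm in the primitive streak, and both can appear in a WNT-driven differentiation. The anterior part of the endoderm becomes the foregut, where FOXA factors open the chromatin of liver, lung and pancreas genes, and HHEX is needed for the liver bud. Foregut endoderm lies next to the forming heart, sends it BMP and other signals and receives signals from it, and its hepatic descendants make the transport proteins of plasma, among them transthyretin (TTR).

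The FOXA2+ TTR+ cells were deeper than the cells around them. They held a median of 27295.5 UMIs at D8 and 25263 at D14, against 15064 and 12211 in the other kept cells, and a median of 5158.5 and 5065 detected genes against 3811 and 3550.5. Levels are therefore given as CPM (UMIs summed over cells and scaled to 1000000), with the exact Poisson interval at 95%. The share of cells holding a gene is given after each cell was thinned to 4000 UMIs, beside the share in cardiomyocyte-gated cells (TNNT2 and MYL7 at 5 UMIs or more, 406 cells at D8 and 1022 at D14, median 16159.5 and 12858.5 UMIs) as the level that free RNA could give. Where a number of cells with a UMI stands without a percentage, the cells were not thinned. All intervals cover counting error only. Summed totals were 2746507 UMIs at D8 and 2203804 at D14, so that 3 counts correspond to 1.09 and 1.36 CPM.

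Gated cells carried 1 to 15 FOXA2 UMIs at D8 (median 4) and 1 to 20 at D14 (median 3), with 14 and 16 cells at the minimum. TTR UMIs ran from 3 to 607 at D8 (median 16) and from 3 to 513 at D14 (median 10), with 7 and 12 cells at the minimum. Just outside the gate, 42 cells at D8 and 33 at D14 had FOXA2 with 1 or 2 TTR UMIs. These cells carried EPCAM at 537 and 496 CPM and HHEX at 310 and 346 CPM. Another 9 and 12 cells had TTR without a FOXA2 UMI, and these carried APOA2, a high-density lipoprotein component, at 1750 and 4036 CPM. A further 115 and 77 cells had FOXA2 and no TTR UMI.

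HHEX and EPCAM, which the gate did not read, were named beside FOXA2 and TTR as markers of the proposed label. They were chosen with earlier results of these data known, so their levels are a description and no independent check. HHEX, the homeobox factor of the anterior endoderm, stood at 425 CPM (401 to 450) in the D8 cells and 306 CPM (283 to 330) in the D14 cells, against 39.0 and 23.2 CPM in other kept cells. After thinning, 72.3% of D8 cells and 65.1% of D14 cells had a HHEX UMI, against 1.72% and 0.783% of cardiomyocyte-gated cells. EPCAM, an epithelial adhesion molecule, stood at 721 CPM (690 to 753) and 474 CPM (446 to 504), against 117 and 53.9 CPM. HHEX and EPCAM were at least 2-fold higher in the gated cells on both days. Over all genes, 332 of 8167 genes with a mean of 10 CPM or more were 2-fold higher in the gated cells at D8 (4.07%) and 396 were 2-fold lower (4.85%). At D14 the figures were 410 (4.76%) and 855 (9.92%) of 8619 genes.

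**Figure D1:**
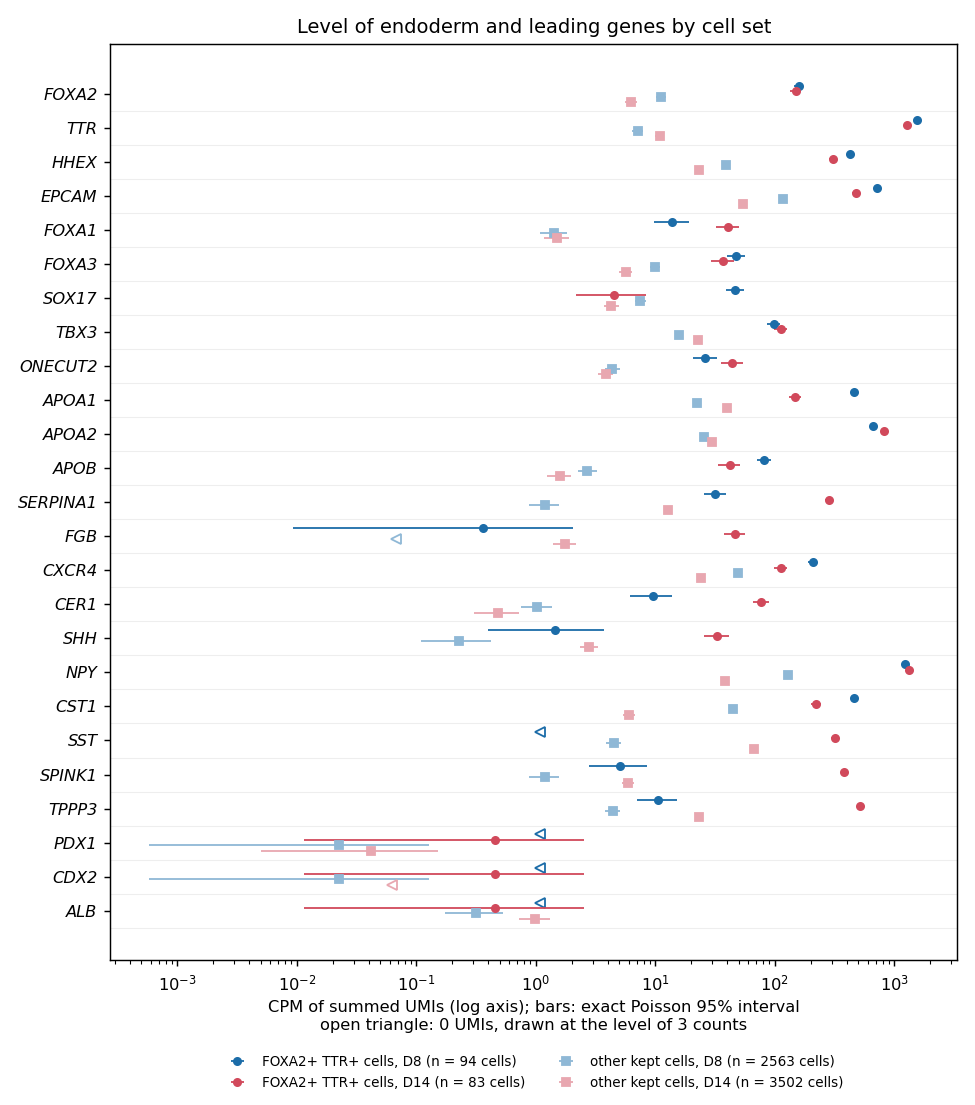
CPM of summed UMIs on a log axis for 25 genes in FOXA2+ TTR+ cells and other kept cells at D8 and D14; bars are exact Poisson 95% intervals and open triangles mark 0 UMIs, drawn at the level of 3 counts. HHEX and EPCAM lie above other cells on both days, while PDX1, CDX2 and ALB lie at or near 0.

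Several pan-endoderm factors and most of the hepatic factors tested were higher in the gated cells than in other cells. Pancreatic and posterior gut factors were at or near 0 in both sets of cells. The list of 12 pan-endoderm factors holds FOXA2, which the gate used, so it is left out of the counts here. Of the others, 6 had a mean of 10 CPM or more between gated and other D8 cells, with 3 at least 2-fold higher and 1 lower. At D14 the count was 4 higher and 1 lower of 6. In 2 of the 3 at D8 and 3 of the 4 at D14 the other cells were under 10 CPM, so these genes passed the filter only through the gated cells, and the counts are a description. FOXA3, a hepatic and gut FOXA factor, stood at 47.7 CPM on D8 and 36.8 CPM on D14, and KLF5, an epithelial factor, at 42.2 and 46.3 CPM. Both were above the 10.0 and 5.64 CPM and the 6.79 and 6.64 CPM of other cells. GATA4 and GATA6, which the heart shares with endoderm, were lower than in other cells at D14 (19.97 against 50.4 CPM and 29.5 against 42.3 CPM), GATA4 by more than 2-fold.

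The list of 10 hepatic factors holds HHEX, a marker of the proposed label that is no independent check. HHEX is among the genes counted as higher on both days. Of the list, 3 of 3 tested at D8 and 4 of 5 tested at D14 were at least 2-fold higher in the gated cells. Over all genes the shares were 4.07% and 4.76%. For 1 of the 3 and 2 of the 4, other cells were under 10 CPM. These passed the filter only through the gated cells, so the counts are a description. TBX3, required for liver bud outgrowth, stood at 97.9 CPM (86.6 to 110) at D8 and 113 CPM (99.0 to 127) at D14, against 15.8 and 22.7 CPM in other cells. ONECUT2 stood at 26.2 and 44.0 CPM, and its relative ONECUT1, a hepatobiliary factor, at 1.82 and 12.3 CPM. NR1H4, NR0B2 and LHX2 had 0 UMIs in the gated cells on both days, where 3 counts would be 1.09 CPM at D8 and 1.36 CPM at D14.

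Among 13 anterior and pharyngeal foregut factors, none of the 5 tested at D8 and none of the 3 tested at D14 were 2-fold higher than in other cells, and 3 and 2 were 2-fold lower. For 2 of the 3 and 1 of the 2, the gated cells were under 10 CPM, so these passed only through other cells. SOX2, a factor of the dorsal and anterior foregut, was in 8 of 94 D8 cells and 10 of 83 D14 cells, at 7.28 CPM (4.45 to 11.2) and 10.4 CPM (6.62 to 15.7). Of these cells, 7 and 8 also held HHEX UMIs, which were present in 92 cells at D8 and in 75 at D14. NKX2-1, a lung and thyroid factor, had 6 UMIs in 5 D8 cells and 2 UMIs in 1 D14 cell. ISL1 stood at 89.9 and 143 CPM, close to the 94.6 and 153 CPM of the other cells.

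The 10 pancreatic and posterior gut factors together summed to 1.09 CPM on D8 and 7.26 CPM on D14 in the gated cells, with 8 and 4 of them at 0 UMIs, and to 3.09 and 4.56 CPM in other cells. PDX1, of pancreas and duodenum, and CDX2, of the intestine, each had 0 UMIs at D8 and 1 UMI at D14. The 19 HOX genes, which mark position along the body axis, summed to 7.65 and 13.2 CPM in the gated cells against 95.9 and 172 CPM in other cells. HOXB2 alone stood at 4.37 and 7.26 CPM against 56.1 and 67.2 CPM. The low HOX level was present on both days.

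Between D8 and D14 cells, SOX17 and other early endoderm genes were lower at D14 and FOXA1 was higher. Over all genes of this comparison, 535 of 8194 genes with a mean of 10 CPM or more were at least 2-fold higher at D14 (6.53%) and 376 were at least 2-fold lower (4.59%), with a median log2 ratio of -0.09. A gene with under 10 CPM on one of the days could pass this filter only by being high on the other, which was so for 243 of the 535 and 147 of the 376 genes, so counts over lists are given as a description. In other kept cells, 648 of 8544 genes were higher (7.58%) and 116 lower (1.36%), with a median of 0.07. SOX17, a defining factor of definitive endoderm, stood at 46.6 CPM (38.9 to 55.4) at D8, with UMIs in 40 of 94 cells, and at 4.54 CPM (2.18 to 8.34) at D14, in 5 of 83 cells. The log2 ratio was -3.36 (-4.45 to -2.43), against -0.81 in other kept cells. In thinned cells, 17 D8 cells and 0 D14 cells had a SOX17 UMI, and 0 D14 cells of 83 allows a share of up to 4.35% (exact upper bound).

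FOXA1, a FOXA factor that acts with FOXA2 in the gut tube, stood at 13.8 CPM (9.79 to 19.0) in 28 cells at D8 and 40.4 CPM (32.4 to 49.7) in 47 cells at D14. FOXA2 itself stood at 158 and 149 CPM, with a log2 ratio of -0.08 whose interval (-0.29 to 0.13) includes 0. HHEX and EPCAM were lower at D14 by less than 2-fold (log2 ratios -0.47 and -0.60). CEBPA, a hepatocyte and myeloid factor, had 3 UMIs at D8 and 39 UMIs in 25 cells at D14 (log2 ratio 4.02, 2.36 to 6.36). The counts of the lists were modest. Of 7 pan-endoderm factors tested besides FOXA2, 2 were higher (FOXA1 and GATA6) and 1 lower (SOX17, which passed the filter only through D8). Of 4 hepatic factors, 1 was higher (PROX1, a liver and lymphatic factor, at 4.01 and 17.2 CPM, which passed only through D14).

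Genes of the mesendoderm and early definitive endoderm were lower at D14 in 3 of the 6 tested, namely LHX1, HAS2 and CYP26A1, and higher in 1, CER1 (median log2 ratio -1.10). CYP26A1, under 10 CPM at D14, passed the filter only through D8, and CER1, under 10 CPM at D8, only through D14. In other cells 3 of 4 tested were lower (median -1.40). LHX1, an anterior mesendoderm factor, stood at 69.5 CPM in 46 cells at D8 and 18.6 CPM in 11 cells at D14. CXCR4, the chemokine receptor used to sort definitive endoderm, stood at 208 and 112 CPM (log2 ratio -0.89, -1.11 to -0.67). CYP26A1, which degrades retinoic acid, stood at 34.2 and 3.18 CPM, and it was lower in other cells too (log2 ratios -3.43 and -3.07). OTX2, an anterior factor of the foregut list, was likewise lower in both sets (-2.06 and -2.27).

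CER1, a secreted inhibitor of NODAL, BMP and WNT, was higher at D14, at 9.47 CPM in 10 cells at D8 and 76.7 CPM in 17 cells at D14. At D14, 1 cell held 60.9% of its UMIs. With the cell of highest CER1 count left out on each day, the log2 ratio was 2.37 in place of 3.02. The 8 pluripotency markers summed to 320 and 128 CPM, against 249 and 40.7 CPM in other cells, with PRDM14 at 0. LIN28A, an RNA-binding protein of early embryonic cells, stood at 227 and 80.8 CPM and TDGF1, a NODAL co-receptor, at 54.3 and 22.7 CPM.

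Lipid transport genes were among those most concentrated in the gated cells. Of 12 apolipoprotein and lipid export genes, 6 of 7 tested at D8 and 4 of 6 tested at D14 were at least 2-fold higher than in other cells. For 2 of the 6 and 1 of the 4, other cells were under 10 CPM, so these passed only through the gated cells. Between days, 1 of 7 was lower at D14 (APOA1) and none were higher (median log2 ratio -0.52). APOB, the structural protein of secreted lipoprotein particles, stood at 81.2 CPM against 2.70 CPM in other D8 cells, and on D14 the levels were 41.7 and 1.58 CPM. APOE, a lipid carrier of many cell types, stood at 1516 and 977 CPM against 568 and 613 CPM. FABP1, a fatty acid carrier of mature liver and gut, had 0 UMIs on both days.

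APOA1 and APOA2, the main proteins of high-density lipoprotein, differed in how they stood between the days. APOA1 stood at 456 CPM (431 to 482) at D8, with a median of 202 CPM over cells and a range of 0 to 4238, and at 147 CPM (132 to 164) at D14, with a median of 66.8 and a range of 0 to 1275. The log2 ratio was -1.63 (-1.81 to -1.45) in the gated cells and 0.81 in other kept cells, and the cardiomyocyte-gated cells carried APOA1 at 20.7 and 71.7 CPM. APOA2 stood at 668 CPM (638 to 700) at D8 and 814 CPM (776 to 852) at D14, but its median over cells was 317 CPM (0 to 5627) at D8 and 77.8 CPM (0 to 11360) at D14. After thinning, APOA2 was in 66.0% of D8 cells and 42.2% of D14 cells, against 1.23% and 0.881% of cardiomyocyte-gated cells. The D14 sum was thus the higher of the pair while fewer D14 cells held the transcript.

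The direction of the APOA2 sum depended on the cells taken. Its log2 ratio was 0.28 (0.19 to 0.38) with all gated cells, -0.46 without the 5 D14 cells of highest SERPINA1 count, -0.14 (-0.26 to -0.02) without the 5 such cells of each day (537 and 487 CPM), and as low as -1.18 when the gate was applied to thinned counts. APOA1 was lower at D14 under each of the 9 other settings tried (-1.89 to -1.06).

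Promoter letters are shown for 3 secreted-protein genes of the gated cells, APOA2, CER1 and FGA (fibrinogen alpha chain), taken from the 7 genes found to hold them, to show where letters of the kind bound by forkhead factors such as FOXA2 lie. The windows are 220 bases from 250 to 31 bases before the start site in RefSeq GRCh38.p14, written 5′ to 3′ on the strand of the gene, and capitals mark the match to TGTTTNC (or its reverse complement GNAAACA). APOA2 is at chr1:161223659-161223878 on the minus strand, CER1 at chr9:14722764-14722983 on the minus strand and FGA at chr4:154590773-154590992 on the minus strand.
APOA2: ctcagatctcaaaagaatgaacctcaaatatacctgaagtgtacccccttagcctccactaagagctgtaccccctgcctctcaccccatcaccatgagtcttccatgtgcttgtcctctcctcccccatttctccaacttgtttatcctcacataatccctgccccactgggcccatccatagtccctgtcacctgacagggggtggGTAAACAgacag
CER1: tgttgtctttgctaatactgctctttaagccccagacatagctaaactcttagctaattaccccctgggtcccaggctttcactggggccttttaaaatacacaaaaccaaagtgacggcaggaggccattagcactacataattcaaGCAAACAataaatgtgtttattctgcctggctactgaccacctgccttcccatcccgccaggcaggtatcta
FGA: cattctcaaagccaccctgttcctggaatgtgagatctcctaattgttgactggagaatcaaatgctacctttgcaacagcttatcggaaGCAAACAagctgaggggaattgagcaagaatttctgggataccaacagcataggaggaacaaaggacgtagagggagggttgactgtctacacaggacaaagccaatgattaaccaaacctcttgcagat
The matches begin 42, 102 and 160 bases before the start. Of 35116 promoter windows of this length in the table, 4821 (13.7%) hold the letters on either strand, and of 20 genes looked for, 13 were found and 7 held them. None were matched in HHEX, NPY, SST, SHH, FGB or FGG. A match is a description of letters and shows no binding.

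Several plasma protein genes of the liver were higher in sum at D14, and the RNA of SERPINA1, the fibrinogen chains FGB and FGG, and AFP lay mostly in a few cells. The 16 genes together summed to 1699 CPM at D8 and 1923 CPM at D14, but most of this was TTR (1558 and 1280 CPM), and the median over cells of the list's sum was lower at D14 (932 and 782 CPM). Between days 10 genes, the gate gene TTR among them, were tested and 7 were at least 2-fold higher at D14, namely SERPINA1, FGA, FGB, FGG, VTN, AMBP and SEPP1. FGA, FGB, FGG and AMBP, with 8, 1, 3 and 17 UMIs at D8, were under 10 CPM there and passed the filter only through D14. SERPINA1, the protease inhibitor alpha-1 antitrypsin, stood at 31.7 CPM (25.4 to 39.1) at D8 and 285 CPM (263 to 308) at D14. It had UMIs in 17 of 94 D8 cells and 18 of 83 D14 cells, so the number of cells was nearly equal while the summed level was not. The highest D8 cell carried 899.5 CPM and the highest D14 cell 13577 CPM, and the median over cells was 0 on both days.

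The 5 D14 cells with most SERPINA1 UMIs held 5.87% of the UMIs of all gated D14 cells but 574 of 628 SERPINA1 UMIs (91.4%). These cells also held 77.5% of FGB and 84.3% of FGG, the beta and gamma chains of fibrinogen. Their share was 91.7% for AFP, the fetal counterpart of albumin, and 67.6% for TF, the iron carrier transferrin. FGB, FGG and TF UMIs lay in 3 of the 5 cells and AFP UMIs in 2. The 5 cells held 43.6% of APOA2, with 6041 CPM against 487 CPM in the other 78 cells. Their own APOA2 levels ran from 159 to 11360 CPM. The same cells held only 9.75% of TTR, 8.61% of HHEX and 6.99% of EPCAM. Their summed HHEX level was 448 CPM, against 297 CPM in the other D14 cells. HHEX stood at 535 and 834 CPM in the cells without FGB UMIs, and at 305, 158 and 436 CPM in the 3 cells with them. NPY at 1.36% and SST at 0.426% were scarce in the sum of the 5 cells, and each had UMIs in 2 of the 5 cells. The cells were chosen for SERPINA1, so its own share is a description.

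Without those 5 cells the SERPINA1 level at D14 was 26.0 CPM and the log2 ratio to all D8 cells was -0.28 in place of 3.17. With the 5 highest cells of each day left out, 6 plasma protein genes, TTR among them, were tested and 3 were higher (SERPINA1, VTN and SEPP1). At D8, the 5 highest cells held 66.7% of SERPINA1, 21.6% of TTR and 24.6% of APOA2, and none of the UMIs of FGA, FGB, FGG or AFP. FGB had 1 UMI at D8 and 102 UMIs in 5 cells at D14, a log2 ratio of 6.99 (4.48 to 12.31).

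VTN, the plasma adhesion protein vitronectin, was spread more evenly, at 31.7 CPM in 39 D8 cells and 95.7 CPM (83.3 to 110) in 62 D14 cells. Its log2 ratio was 1.60 (1.23 to 1.97) with all cells and 1.46 without the 5 D14 cells. ALB, albumin, the main product of mature hepatocytes, had 0 UMIs at D8 and 1 UMI at D14. TTR, which the gate used, had medians of 755 and 542 CPM over cells. The yolk sac and visceral endoderm list, which shares several of these genes, had 4 genes tested, 2 higher and 1 lower. Of the 2 higher, 1 passed the filter only through D14. CUBN, an endocytic receptor of visceral endoderm, had 1 UMI on each day.

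**Figure D2:**
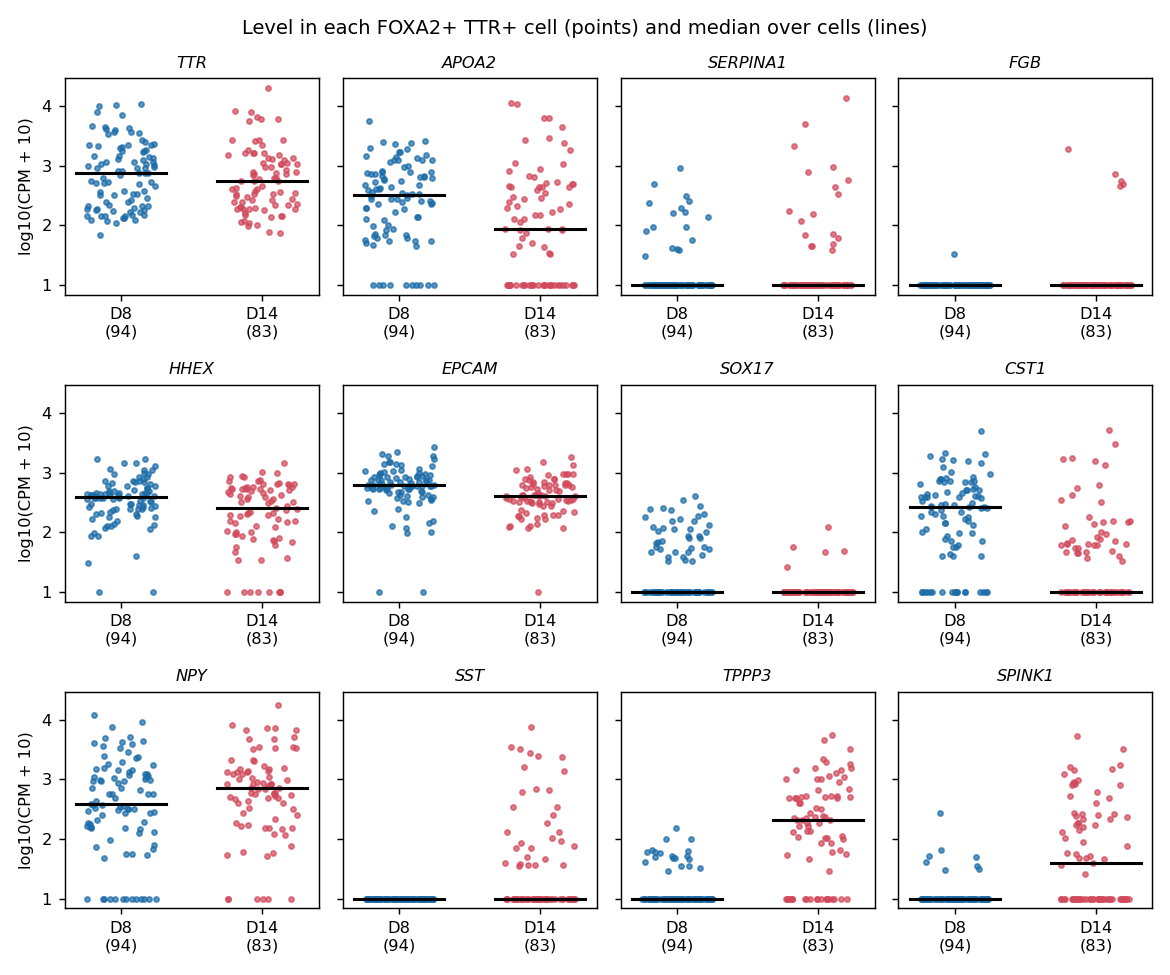
Level of 12 genes in each FOXA2+ TTR+ cell at D8 (94 points) and D14 (83 points), as log10 of CPM plus 10, with the median as a line. SERPINA1 and FGB reach high levels in a few D14 cells with medians at 0, while most D14 cells lie above the D8 cells for TPPP3 (median 196 CPM at D14 and 0 at D8).

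The cells carried epithelial genes above the other cells on both days, with more of them 2-fold higher at D14. Of 18 adhesion and keratin genes, 10 of 17 tested were at least 2-fold higher than in other cells at D8 and 16 of 17 at D14, with CLDN10 the gene that was lower on each day. For 1 of the 10 and 5 of the 16, other cells were under 10 CPM. These passed the filter only through the gated cells, so the counts are a description. Between days, CDH6, CLDN3 and CLDN4 were higher in the gated cells (3 of 16 tested, median log2 ratio 0.26) while the list had a median of -0.67 in other cells. CLDN4, a tight junction claudin, stood at 21.8 CPM (16.7 to 28.1) in 32 D8 cells and 137 CPM (122 to 153) in 68 D14 cells, against 17.0 and 16.6 CPM in other cells. CDH6, a cadherin of kidney epithelium, stood at 7.65 and 57.2 CPM, so it passed the filter between days only through D14. The keratins KRT8 and KRT18, of simple epithelia, were at 1184 and 1102 CPM at D8 and 1496 and 1426 CPM at D14, and in other cells they were lower at D14 (log2 ratios -0.80 and -0.96). Of 10 epithelial regulators, 2 of 4 tested were 2-fold higher than in other cells at D8 and 4 of 5 at D14, and none of 5 were 2-fold apart between days. Of those higher, 1 of the 2 and 2 of the 4 likewise passed only through the gated cells. ESRP1, an epithelial splicing factor, stood at 48.8 and 45.4 CPM against 8.496 and 4.56 CPM.

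Of 12 mesenchymal genes, 8 of 10 tested were at least 2-fold lower in the gated cells at D8 and 9 of 11 at D14. For 5 of the 8 and 7 of the 9, the gated cells were under 10 CPM, so these passed only through other cells. Between days, 3 of 4 tested were higher in the gated cells, 1 of which was under 10 CPM at D8 and passed the filter only through D14. VIM, the intermediate filament of mesenchyme, stood at 378 CPM (355 to 402) at D8 and 1010 CPM (968 to 1052) at D14, against 1759 and 1596 CPM in other cells. COL1A1 stood at 29.5 and 109 CPM and COL3A1, another fibrillar collagen, at 1 UMI and 46 UMIs in 24 cells. Stromal markers were higher at D14 as well, and their 10 genes totalled 96.9 and 287 CPM in the gated cells and 560 and 1453 CPM in other cells, with LUM at 0 on both days and MGP and PDGFRB at 0 at D8. The part of stromal RNA in the VIM and collagen levels was not tested.

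Basement membrane genes split. COL4A6 and COL4A1, chains of type IV collagen, were lower at D14, at 194 and 64.0 CPM and at 108 and 37.7 CPM, with log2 ratios of -1.60 (-1.88 to -1.33) and -1.52 (-1.89 to -1.16). In other cells the ratios were -0.30 and -0.42. LAMA5, a laminin chain of mature epithelia, was higher, at 15.7 and 44.9 CPM. LAMB2, another laminin chain, stood at 5.83 and 19.5 CPM and passed the filter only through D14. The other 11 of 15 genes tested were less than 2-fold apart. FN1, fibronectin, was abundant throughout, at 3138 and 2574 CPM.

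Among signalling genes, SHH was higher at D14 and several FGF pathway genes were lower. SHH, the Hedgehog ligand of gut endoderm, had 4 UMIs in 3 D8 cells and 72 UMIs in 21 D14 cells (1.46 and 32.7 CPM, log2 ratio 4.49, 3.07 to 6.40), against 0.227 and 2.81 CPM in other cells. IHH, a related ligand, stood at 9.10 and 7.71 CPM, and PTCH1, their receptor and target, at 10.2 and 12.3 CPM, so that 1 of 3 Hedgehog genes tested was 2-fold higher, SHH, which passed the filter only through D14. The log2 ratio of PTCH1 was 0.27, and -1.27 when the gate was applied to thinned counts. Of 10 FGF pathway genes tested, 4 were at least 2-fold lower at D14 and none were higher (median log2 ratio -0.88, against 0.32 in other cells). Over all genes tested in the gated cells, 4.59% were 2-fold lower. For 2 of the 4 FGF pathway genes the D14 level was under 10 CPM, so these passed the filter only through D8. FGFR1, a main FGF receptor, stood at 192 CPM (176 to 209) and 60.8 CPM (50.9 to 72.0), with log2 ratios of -1.66 in the gated cells and -0.41 in others. FGFR4, the liver-enriched receptor, stood at 26.2 and 7.26 CPM. The feedback inhibitor SPRY4 and the target ETV5 had log2 ratios of -2.85 and -1.16, against 0.62 and 0.38 in other cells. DUSP6, an FGF target phosphatase, stood at 141 and 70.3 CPM. The feedback inhibitors SPRY1 and SPRY2 were higher at D14 by less than 2-fold (log2 ratios 0.53 and 0.57).

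BMP and TGF-beta genes were higher in 4 of 13 tested, as in other cells, where 4 of 14 were. BAMBI, a decoy receptor for this family, stood at 255 and 657 CPM in the gated cells and 144 and 657 CPM in the others. BMP2, GDF15 and TGFB2 stood at 40.1 and 99.4, 86.7 and 254, and 32.8 and 67.6 CPM. DKK1, a secreted WNT inhibitor, stood at 163 and 243 CPM against 32.7 and 15.0 CPM in other cells, and FZD5, a WNT receptor, at 83.4 and 72.6 CPM against 12.9 and 5.60 CPM. In the WNT list 1 of 7 tested was 2-fold higher, the secreted DKK3 at 9.10 and 19.5 CPM, which also passed only through D14. Retinoic acid genes gave 2 lower of 8 tested, CYP26A1 and DHRS3, and CYP26A1 passed the filter only through D8.

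Ligands that could act on heart or vessels were higher at D14 in 5 of 11 tested. For 3 of these, PDGFB, EDN1 and SEMA3D, the D8 level was under 10 CPM, so they passed the filter only through D14 and the count is a description. PDGFB had 3 UMIs at D8 and 73 UMIs in 24 cells at D14 (log2 ratio 4.92, 3.32 to 7.23). EDN1, endothelin, which CGM also supplies as a peptide, had 4 UMIs at D8 and 82 at D14 (1.46 and 37.2 CPM), of which 1 cell held 51.2%. SEMA3D, a guidance ligand, stood at 6.92 and 29.0 CPM and PDGFA at 10.2 and 33.6 CPM. IGF2, a growth factor, stood at 67.7 and 350 CPM with a log2 ratio of 2.37, and in other cells the ratio was 2.38. VEGFA, the endothelial growth factor, stood at 127 and 108 CPM. Endothelial cells also express PDGFB and EDN1, and 9 endothelial markers summed to 83.4 and 86.7 CPM in the gated cells, with CDH5, PLVAP and TEK at 0 UMIs at D14 and SOX7 at 0 at D8. In other cells the sums were 139 and 162 CPM.

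**Figure D3:**
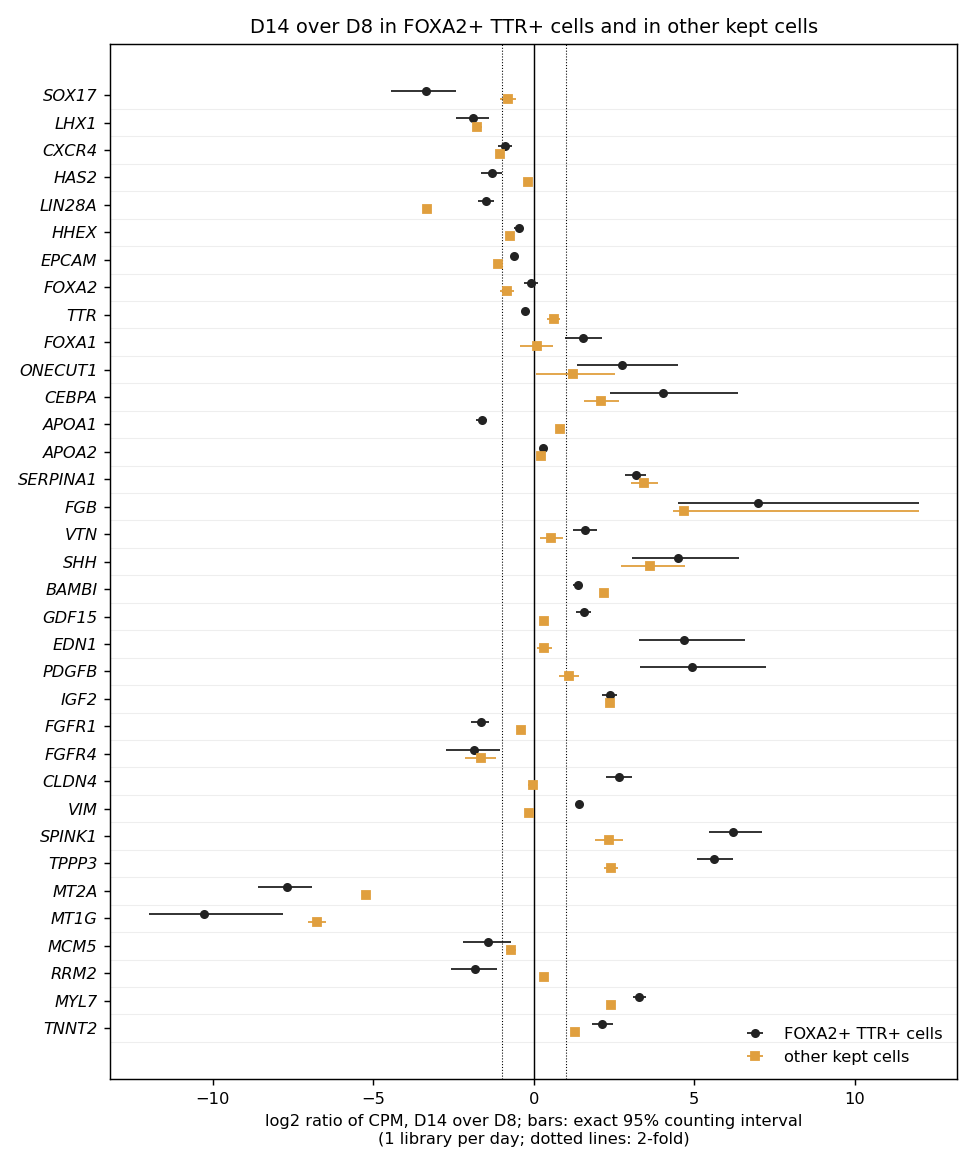
log2 ratio of CPM, D14 over D8, with exact 95% counting intervals (drawn no further than 12) for 35 genes in FOXA2+ TTR+ cells and in other kept cells; dotted lines mark 2-fold. SOX17 (-3.36 against -0.81), FGFR1 (-1.66 against -0.41) and CLDN4 (2.64 against -0.04) stand apart between the cell sets, while IGF2 (2.37 and 2.38) and LHX1 (-1.90 and -1.76) lie close together.

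Among genes with a mean of 50 CPM or more, the 10 with the highest D14 over D8 ratio in the gated cells were C8orf4, SST, TM4SF1, SPINK1, TPPP3, ANXA1, SPP1, MYL3, NPW and SPTSSB. SST, the peptide hormone somatostatin, had 0 UMIs in 94 D8 cells and 704 UMIs in 31 D14 cells (319 CPM, 296 to 344). With D8 set to 3 counts, SST was 292-fold higher at D14. The range over D14 cells was 0 to 7471 CPM with a median of 0, and other kept cells carried 4.50 and 67.1 CPM. After thinning, 20.5% of D14 cells had a SST UMI, against 1.86% of cardiomyocyte-gated cells. Its 5 highest cells held 69.7% of the UMIs.

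TPPP3, a tubulin-binding protein, was more widely shared, at 10.6 CPM (7.07 to 15.2) in 19 D8 cells and 519 CPM (489 to 550) in 62 D14 cells. The median over D14 cells was 196 CPM with a range of 0 to 5480, while the highest D8 cell carried 142 CPM. SPINK1, a secreted trypsin inhibitor, stood at 5.10 CPM (2.79 to 8.55) in 8 cells and 380 CPM (355 to 407) in 44 cells, with a median of 29.0 CPM at D14 and a highest cell of 5325.5 CPM. C8orf4 had 1 UMI at D8 and 569 UMIs in 61 cells at D14, a log2 ratio of 9.47 (6.99 to 14.78). In thinned D14 cells, TPPP3, SPINK1 and C8orf4 were in 53.0%, 32.5% and 44.6%, against 2.94%, 1.37% and 0.978% of cardiomyocyte-gated cells. In other kept cells their log2 ratios between days were 2.40, 2.33 and 1.86.

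At D14 the cells highest in TPPP3 and those highest in SERPINA1 differed in several of these genes, though some cells held both TPPP3 and SERPINA1. The 5 D14 cells with most TPPP3 UMIs held 32.7% of SST and 13.8% of NPY but 0.159% of SERPINA1, and none of FGB. The 5 SERPINA1-rich cells carried SST at 23.2 CPM and SPINK1 at 124 CPM, against 338 and 396 CPM in the other D14 cells, while TPPP3 stood at 433 and 525 CPM. The TPPP3 UMIs of these SERPINA1-rich cells lay in 2 of the 5. At D8, where TPPP3 numbered 29 UMIs, the 5 cells with most of it held 39.1% of SERPINA1, 23.8% of APOA2 and 23.5% of TTR. TM4SF1, a membrane protein, had 0 UMIs at D8 and 348 UMIs in 17 cells at D14 (145-fold higher with D8 set to 3 counts), with 34.8% in 1 cell. SPP1, the secreted phosphoprotein osteopontin, had 24 UMIs in 3 cells at D8 and 519 UMIs in 31 cells at D14, with 42.8% in 1 cell. ANXA1, a calcium-dependent membrane-binding protein, stood at 3.28 and 97.1 CPM, against 76.9 and 106 CPM in other cells. NPW, a neuropeptide, stood at 13.5 and 227 CPM and SPTSSB, a subunit of the enzyme that starts sphingolipid synthesis, at 9.83 and 136 CPM.

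NPY and CST1 were abundant from D8 on. NPY, a neuropeptide, stood at 1234 CPM (1193 to 1277) at D8 with a median over cells of 371 and a highest cell of 12074, and at 1333 CPM (1285 to 1382) at D14 with a median of 708 and a highest cell of 17490. The log2 ratio was 0.11 in the gated cells and -1.74 in other cells, where NPY stood at 129 and 38.6 CPM. CST1, a secreted cysteine protease inhibitor, stood at 458 and 221 CPM, with UMIs in 76 and 41 cells, against 45.0 and 6.06 CPM in other cells.

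**Figure D4:**
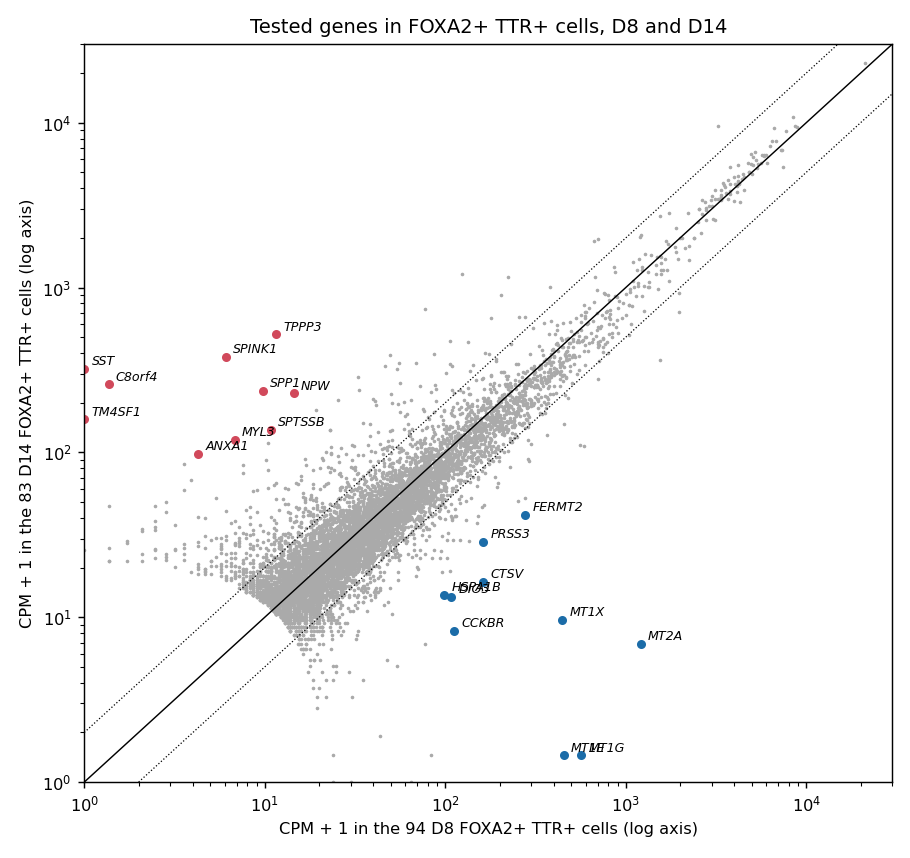
CPM plus 1 of 8194 genes with a mean of 10 CPM or more in the 94 D8 and 83 D14 FOXA2+ TTR+ cells, both axes log; the solid line is equality, dotted lines are 2-fold, and the named genes have the 10 highest and 10 lowest ratios among genes with a mean of 50 CPM or more. SST and TM4SF1 lie on the axis of 0 UMIs at D8, and the metallothioneins MT1G, MT1E, MT2A and MT1X lie far below equality.

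The lowest ratios were led by metallothioneins, small zinc-binding proteins, and this was shared with the other cells. MT2A stood at 1208 CPM in 68 D8 cells and 5.90 CPM in 10 D14 cells (log2 ratio -7.68), and MT1G at 567 CPM and 1 UMI. Of 6 metallothioneins tested, 6 were lower in the gated cells (median -7.59), and of 5 tested in other cells, 5 were lower (median -5.24). All 6 were under 10 CPM at D14 in the gated cells and passed the filter only through D8, so the count is a description. Over all genes tested in the gated cells, 4.59% were 2-fold lower. These genes are near-identical copies, so reads may be split among them. Metallothionein RNA was uneven among the D8 cells, where MT2A and MT1G had the highest variance over mean among gated cells (44.1 and 42.9 after thinning, against a median of 1.08 over 4651 genes).

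The other genes with the lowest ratios were CCKBR, CTSV, DIO3, HSPA1B, FERMT2 and PRSS3. CCKBR, a receptor for gastrin, stood at 111 CPM in 68 D8 cells and 7.26 CPM in 14 D14 cells, against 19.9 and 3.25 CPM in other cells. FERMT2, an integrin activator, stood at 276 CPM (257 to 296) in 90 cells and 40.8 CPM (32.8 to 50.2) in 48 cells, with a log2 ratio of -2.76 against -0.89 in other cells. DIO3, which inactivates thyroid hormone, stood at 107 and 12.3 CPM, and 1 D8 cell held 70.4% of its UMIs. HSPA1B, a heat shock protein, stood at 97.6 and 12.7 CPM and its ratio in other cells was alike in size (-2.94 and -2.82).

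PRSS1 and PRSS3, trypsinogens whose near-identical sequences leave the split between them uncertain, were abundant on D8, at 1540 and 161 CPM, and stood at 360 and 27.7 CPM at D14. In other cells PRSS1 stood at 65.6 and 4.91 CPM. ALAS2, the erythroid form of the first enzyme of haem synthesis, had 174 UMIs in 27 D8 cells (63.4 CPM) and 0 UMIs at D14, at least 46.5-fold lower. Blood markers were near 0 in the gated cells, with 8 genes summing to 6.55 and 4.54 CPM, against 10.6 and 28.5 CPM in other cells.

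Several proliferation genes were lower at D14 in the gated cells, and those of G2 and M phase depended on the gate. Of 10 S phase genes tested, 6 were at least 2-fold lower (median log2 ratio -1.15). For 2 of these 6 the D14 level was under 10 CPM, so they passed the filter only through D8. Of 12 genes of G2 and M phase, 4 were 2-fold lower (median -0.84). Over all genes tested in the gated cells, 4.59% were 2-fold lower. In other cells none of either list were 2-fold lower, and the medians were -0.60 and -0.20. RRM2, a subunit of ribonucleotide reductase, stood at 35.7 and 9.98 CPM against 17.2 and 21.4 CPM in other cells. TOP2A, the topoisomerase of dividing cells, stood at 211 CPM in 48 D8 cells and 99.4 CPM in 34 D14 cells. CENPF, a centromere protein, had a log2 ratio of -1.04 with all cells and 0.23 when the gate was applied to thinned counts. Under that gate AURKA, CCNB1 and UBE2C, genes of mitosis, also turned, to 0.16, 0.10 and 0.28, and TOP2A, TPX2 and PLK1 were near 0 at -0.20, -0.13 and -0.08. Glycolysis genes gave no gene of 17 at least 2-fold apart (median -0.32), and 1 of 10 hypoxia response genes was higher. Of 12 immediate early and stress genes, 6 were higher and 2 lower, among them FOS, an early response factor, at 49.2 and 225 CPM. Of these, 1 higher gene passed the filter only through D14 and 1 lower gene only through D8.

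Cardiomyocyte RNA was present in the gated cells and higher at D14. The 10 cardiomyocyte markers summed to 485 CPM on D8 and 2249 CPM on D14, against 3815 and 13954 CPM in other kept cells and 16214 and 39745 CPM in cardiomyocyte-gated cells. Over the gated cells the sum ran from 29.1 to 6226 CPM at D8 (median 188) and from 108 to 57690 CPM at D14 (median 703). Of the 10 markers, 8 were at least 2-fold higher at D14 in the gated cells (median log2 ratio 2.57) and 9 in other cells (2.07). The gated cells that also met the cardiomyocyte gate numbered 2 at D8 and 5 at D14.

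The 5 D14 cells with most cardiomyocyte marker RNA held 75.2% of the MYL7 UMIs (atrial myosin light chain) and 70.1% of the TNNT2 UMIs (cardiac troponin T) but none of SERPINA1 or FGB. They held 3.41% of HHEX, at 110 CPM against 326 CPM in the other D14 cells, and 18.5% of APOA2. With the cells meeting the cardiomyocyte gate left out, the log2 ratio was 3.26 for SERPINA1, 5.63 for TPPP3, 8.27 for SST and -0.47 for HHEX, and 2.10 in place of 3.29 for MYL7. MYL3, another myosin light chain, was among the 10 highest ratios, at 5.83 and 118 CPM. The doublet caller marked 1 cell on each day (0.0376% and 0.0279%), too few for a caller that has worked, and 1 of these was a gated D8 cell. The part of doublets and free RNA in the cardiomyocyte sums was not tested.

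**Figure D5:**
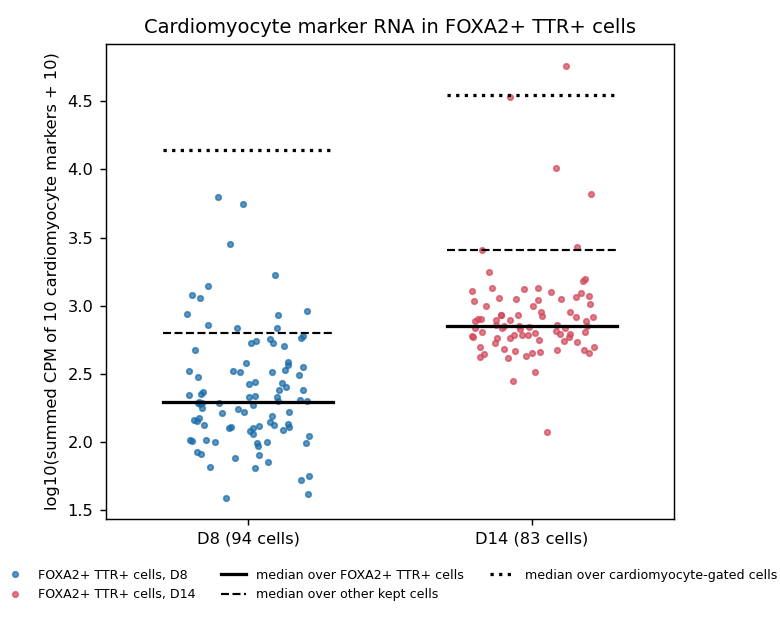
Summed CPM of 10 cardiomyocyte markers in each FOXA2+ TTR+ cell, as log10 of the sum plus 10, with medians of these cells (solid), other kept cells (dashed) and cardiomyocyte-gated cells (dotted). The medians of 188 CPM (D8) and 703 CPM (D14) lie below the 616 and 2572 CPM of other cells, and a few D14 cells reach the level of cardiomyocyte-gated cells.

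Genes that stood highest over other kept cells, among those at 50 CPM or more in the gated cells, were TTR, ALAS2, APOB, APOA2, PRSS1, APOA1, PRSS3, ARSE, ENPP1 and FOXA2 at D8. At D14 they were CER1, TTR, PRSS1, SPINK1, LCN15, LTB, CST1, NPY, APOA2 and VTN. LCN15, a lipocalin, and LTB, a lymphotoxin, rested on few cells, as 1 D14 cell held 89.0% of LCN15 UMIs and 1 cell held 74.6% of LTB. ENPP1, a pyrophosphate-forming ectoenzyme, stood at 83.01 and 21.8 CPM against 5.68 and 4.41 CPM in other cells. Since FOXA2 and TTR set the gate, these ranks describe the gated cells and test nothing.

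Spread among the D14 cells was led by NPPB, GAL, MYL7 and SERPINA1, with variance over mean of 84.1, 74.6, 64.3 and 35.3 after thinning, against a median of 1.07 over 4560 genes. For NPPB, a natriuretic peptide of heart muscle, 1 cell held 60.8% of the UMIs, and for GAL, the neuropeptide galanin, 1 cell held 79.9%. Without the highest cell of each day, the log2 ratio of GAL was -0.88 in place of 1.29. TTR, APOA2 and NPY followed among the 10 genes of greatest spread, with 23.8, 21.7 and 21.2. HHEX and EPCAM were the more even, as the 5 highest D14 cells held 21.1% and 17.9% of their UMIs, against 63.5% for APOA2.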

How the data were processed

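The members and lists were chosen with earlier results of these data known. The authors deposited UMI counts per gene and cell barcode, without normalization, in a table of 32738 genes and 17327 barcodes. The submitters' processing notes name Cell Ranger (version not given in the sources used here), Seurat 3.2.1 and hg19. The values were checked to be whole, and each barcode's day came from its column name. The files hold no coordinates. Promoter sequence came from RefSeq GRCh38.p14, matched by symbol.

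Cells with more than 2000 and fewer than 7500 detected genes and under 10% of UMIs from 13 mitochondrial genes were kept, 2657 of 3563 barcodes at D8 and 3585 of 4615 at D14. D8 and D14 share 25 barcode sequences, of which 14 were kept in both and 0 were FOXA2+ TTR+ cells. UMIs were summed over cells and given as CPM with exact Poisson 95% intervals, and the interval of a log2 ratio is that of the binomial split of both counts. A gene at 0 was set to 3 counts. With 1 library per day there was no test, and a gene was counted as higher or lower at 2-fold or more among genes with a mean of 10 CPM or more. Cells were thinned to 4000 UMIs for shares (exact Clopper-Pearson intervals) and variance over mean. Doublets were scored with Scrublet and kept.

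Genes named were those of 25 lists at 10 CPM or more in either day or known for their absence, the 10 highest and 10 lowest ratios between days at a mean of 50 CPM or more, the 10 highest over other cells and the 10 of greatest variance over mean on each day, passing over mitochondrial, clone-style and sex-linked names. A gene of the lists is not reported here. The cells highest in SERPINA1, cardiomyocyte markers or TPPP3 and their shares, and genes named beside a list at lower levels, were chosen after values were seen. A simulation drew both days from the summed D8 profile of the gated cells, with the UMI totals of the days, and tested 7890 genes. It found 100% of 90 genes changed by 1.5 and of 88 changed by 2.5 (log2). There, 95.6% of intervals held the true ratio and 0.285% of 7712 unchanged genes were called. The draws held no spread between cells, so these rates cover counting error only and are no error rates for the data. Python 3.11.15, numpy 2.4.6, scipy 1.17.1, pandas 2.3.3, scanpy 1.11.5 and matplotlib 3.10.9 were used, with TMM factors from edgeR 4.0.16 in R 4.3.3. Alternatives changed the limits on cells, the gate, doublets, scaling, averaging and the filter on low genes.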

Additional observations from a re-analysis of the deposited data

Results flagged for a closer look

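RRM2 and SPP1 lay on opposite sides of other kept cells on the 2 days. RRM2, a proliferation gene, had a log2 ratio of FOXA2+ TTR+ cells over other cells of 1.06 at D8 (35.7 against 17.2 CPM) and of -1.10 at D14 (9.98 against 21.4 CPM). SPP1 had a ratio of -1.97 at D8 (8.74 against 34.3 CPM) and of 2.55 at D14 (236 against 40.2 CPM), where 1 cell held 42.8% of its UMIs. With 1 library per day, neither difference between days was tested.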

How the results depend on the processing

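No paired analysis was possible because each day has 1 library, and leaving out a replicate was impossible for the same reason. The share of FOXA2+ TTR+ cells was 2.86% at D14 with a mitochondrial limit of 5%, 1.67% at D14 with TTR at 6 UMIs or more, and 1.39% at D8 and 1.09% at D14 when the gate was applied to thinned counts (37 and 39 cells, of which 35 and 33 were in the reported set). The exact intervals of the 2 days overlapped with that gate, with the 5% limit (2.93 to 4.46 at D8 and 2.27 to 3.56 at D14) and with TTR and EPCAM in place of FOXA2 (3.07 to 4.56 and 2.12 to 3.20). They also overlapped without the cells marked by the doublet caller (2.835 to 4.273 and 1.849 to 2.863). Under that thinned gate 637 genes were 2-fold lower at D14, in place of 376. With a mean of 50 CPM or more, 125 genes were higher and 105 lower at D14, and over other cells 102 and 82 at D8 and 128 and 199 at D14. With no filter on low genes these counts were 1809 and 1269, 4312 and 1731, and 4672 and 2475, where a smaller or larger number of genes was tested by construction.

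Of the named genes, 38 of 256 had log2 ratios on both sides of 0 over the planned settings, among them APOA2 (-1.18) and PTCH1 (-1.27) under the thinned gate, TBX3 (lowest -0.07) and SOX2 (lowest -0.03). Of genes at least 2-fold apart between days, CENPF (0.23) and LCN15 (-4.34) changed sign under the thinned gate, LCN15 (-1.86) without cells meeting the cardiomyocyte gate, GAL (-0.88) and LCN15 (-1.33) without the highest cell of each day, and SERPINA1 (-0.28) without its 5 highest D14 cells. The last 2 of these settings were chosen after seeing the data. TMM scaling left 253 of 256 log2 ratios inside the counting interval of the reported value, and the thinned gate 142 of 253. SOX17 stayed between -4.61 and -2.99, TPPP3 between 5.28 and 6.57, SPINK1 between 5.32 and 6.48 and FGFR1 between -1.82 and -1.60 under the 9 planned settings.

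Depth limits what is near 0: a gene below 1.09 CPM at D8 or 1.36 CPM at D14 cannot be told from absence, and thinning to 4000 UMIs hides genes of low level. Counting intervals leave out variation between CCOs and cultures, which a single library per day cannot show.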
